A study of Mus musculus with 2 samples.

Results

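The genes described here are 10 immediate early genes: the zinc finger factors Egr1, Egr2 and Egr3, the orphan nuclear receptors Nr4a1, Nr4a2 and Nr4a3, the small IER proteins Ier2, Ier3 and Ier5, and the serum response factor gene Srf. They were chosen by symbol, and all 10 were found among 17874 genes with at least 1 probe set of their own in the deposited table. Each was measured by 1 probe set. The samples were CFU-E cells, erythroid progenitors that need erythropoietin to survive, and their RNA was hybridised to 2 Affymetrix arrays. Per the protocol, both samples came from BALB/c mouse embryos null for the erythropoietin receptor (EpoR-/-), at gestational day 13.5. The cells were obtained from 40 to 50 pooled fetal livers by lysis of red cells and by depletion with antibodies to GR1, CD11b, CD14, CD45, CD45R/B220, CD4, CD8, CD41 and TER-119, among others. After 1 h without growth factors they were either kept for a further 3 h in Panserin medium (3 h, 1 array) or lysed at once (0 h, 1 array). No array of wild-type cells, and none with erythropoietin, was analysed here.

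The labels disagree with the protocol on several points. The genotype label names Epo where the protocol names its receptor, and at 3 h the treatment label names growth factors where the protocol adds none. The samples are therefore called by their time. The probe set of the receptor gene Epor was above the background floor defined below on both arrays, with a log2 value of 6.89 at 3 h, against 7.08 at 0 h. Whether it lies within the deleted part of the gene is not given in the labels, so it does not settle the genotype, and the loss of the receptor rests on the protocol alone. Only the 0 h sample has its strain labelled. The sources used here do not say whether 1 pool of livers gave both samples. With 1 array per time there is no replicate, so no difference below has an error, a test or a p-value.

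Immediate early genes are transcribed within minutes of a signal, without new protein synthesis, and their mRNAs are short-lived. Growth factor receptors reach them through the kinase ERK, which phosphorylates ETS factors of the ELK group bound beside SRF at serum response elements, and through kinases that phosphorylate CREB at cAMP response elements (CRE). The EGR and NR4A products are themselves transcription factors, so they form a layer between the signal and later genes. In erythroid progenitors the erythropoietin receptor signals through JAK2 to STAT5 and ERK.

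At 3 h, 5 of the 10 genes were at least 2-fold lower than at 0 h: Egr3, Nr4a1, Ier2, Egr2 and Egr1. Srf and Ier3 were lower by less, and Nr4a3, Ier5 and Nr4a2 were higher, none of them by 1.5-fold. In bulk RNA such as this, fewer cells of a type and less RNA per cell cannot be told apart. Each difference is the log2 value of the 3 h array less that of the 0 h array. A gene was counted if the higher of its 2 values reached 5.70, the median of all gene values, which serves as a floor against dim signals, and all 10 genes reached it on both arrays. Of the 9284 genes that passed, 0.872% were at least 2-fold lower and 2.00% at least 2-fold higher at 3 h, against 50.0% and 0% of these 10. The 5 genes made up 6.17% of all 81 genes that were at least 2-fold lower. At 1.5-fold, 4.80% of genes were lower and 6.94% higher, and the same 5 of 10 were lower and 0 higher. The median difference was -0.79 for the 10 genes and 0.01 for all 9284, of which 48.5% were lower. The robust SD of all differences, a measure of spread across genes and not of replicate error, was 0.31.

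**Figure D1:**
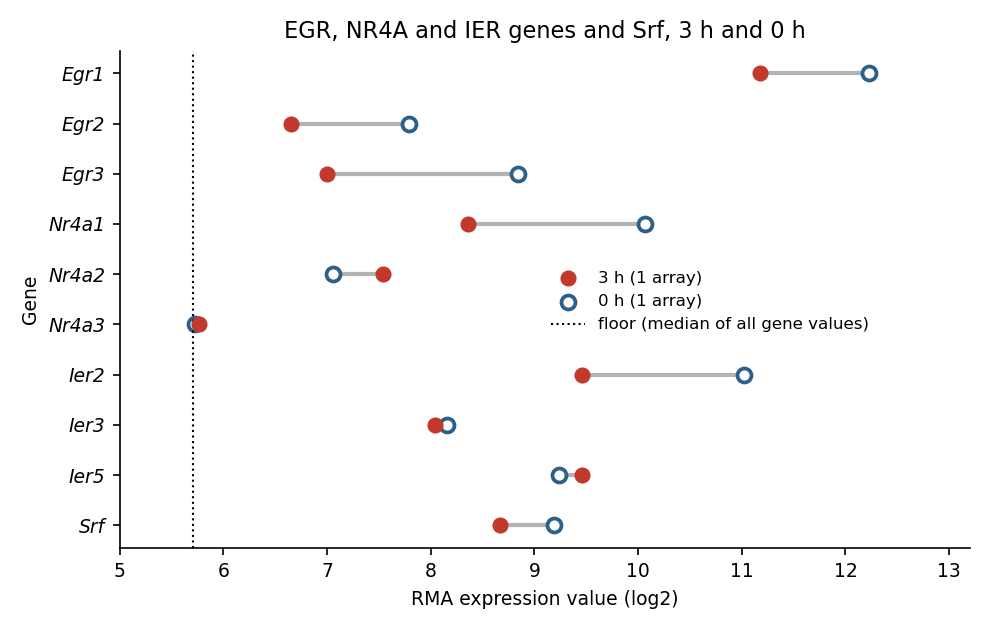
RMA expression values (log2) of the 10 genes on the horizontal axis, 1 gene per row, with filled points for the 3 h array and open points for the 0 h array. Egr1, Egr2, Egr3, Nr4a1 and Ier2 have the 3 h point at least 1 log2 unit left of the 0 h point, and Nr4a3 lies next to the dotted floor of 5.70.

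The EGR genes were the only one of the 3 families in which every member was at least 2-fold lower. Egr3, needed for muscle spindle development, had a log2 value of 7.00 at 3 h, against 8.84 at 0 h (probe set 1436329_at). This difference of -1.83 was a 3.57-fold lower signal, and only 5 of 9284 genes were lower by more. Egr2 (Krox20), a regulator of hindbrain patterning and of myelination by Schwann cells, had 6.66 at 3 h, against 7.79 at 0 h (probe set 1427682_a_at), a difference of -1.13 or 2.20-fold. Egr1, the family member induced in most cell types by mitogens, had 11.18 at 3 h, against 12.23 at 0 h (probe set 1417065_at). Its difference of -1.05, or 2.07-fold, lay just past the 2-fold threshold, and quantile normalization of the 2 columns left it just short of it, at -0.996. The 3 EGR differences spanned 0.78 on the log2 scale. The remaining family gene, Egr4, was near the floor at both times, with 5.45 at 3 h, against 5.74 at 0 h.

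EGR factors bind a GC-rich site, and NAB proteins bind EGR1 and EGR2 and repress their activity. Nab2, which is also an EGR target, had 7.33 at 3 h, against 7.74 at 0 h, a difference of -0.41. Nab1 was at 10.38 at 3 h, against 10.36 at 0 h, so the co-repressor genes differed far less than the EGR genes. A list of 12 textbook EGR targets, of which 11 were measured and 10 reached the floor, went both ways: 5 were lower and 5 higher, with a median of 0.02. The median was -0.08 with no floor, and also with both values required to reach it. Past 2-fold, 2 of them were higher and 0 lower, against 2.00% and 0.872% of all genes. The growth factor gene Pdgfb had 6.75 at 3 h, against 5.15 at 0 h, a difference of 1.60 from a 0 h value below the floor. The tissue factor gene F3 differed by 1.13 and Pdgfa by 0.90, while the membrane protease gene Mmp14 differed by -0.91.

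The NR4A genes were split. Nr4a1 (Nur77), linked to apoptosis of T cells, had 8.36 at 3 h, against 10.07 at 0 h (probe set 1416505_at). The difference was -1.71, so the 3 h signal was 30.6% of the 0 h signal on the linear scale. Only 6 of the 9284 genes were lower by more. Nr4a2 (Nurr1), needed for midbrain dopamine neurons, went the other way, with 7.54 at 3 h, against 7.06 at 0 h (probe set 1455034_at), a difference of 0.48 or 1.40-fold. That was higher than in most genes, since 10.0% of the 9284 were as high or higher. Nr4a3 (NOR-1) had 5.76 at 3 h, against 5.72 at 0 h (probe set 1421080_at). It lay 0.06 above the floor at 3 h and 0.02 above it at 0 h, so a decrease in this gene could hardly be seen. The 3 genes spanned 2.19 on the log2 scale, the widest range of the 3 families. In mice, loss of both Nr4a1 and Nr4a3 leads to acute myeloid leukaemia, so these 2 genes are known to act in blood progenitors.

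The sequences upstream of the 3 NR4A starts are shown because the genes are known CREB targets and differed in direction here. They are RefSeq sequences of the build GRCm38.p6, from the C57BL/6J strain, and cover the 250 bases before an annotated start. They lie at chr15:101266596-101266845 (plus strand) for Nr4a1, chr2:57124004-57124253 (minus strand) for Nr4a2 and chr4:48045055-48045304 (plus strand) for Nr4a3. Capitals mark the CRE core TGACG on either strand.
Nr4a1: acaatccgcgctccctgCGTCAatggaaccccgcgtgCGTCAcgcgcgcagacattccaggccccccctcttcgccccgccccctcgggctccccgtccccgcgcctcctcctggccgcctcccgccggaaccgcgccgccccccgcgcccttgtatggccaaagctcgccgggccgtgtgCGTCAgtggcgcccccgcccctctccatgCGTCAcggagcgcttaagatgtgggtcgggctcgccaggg
Nr4a2: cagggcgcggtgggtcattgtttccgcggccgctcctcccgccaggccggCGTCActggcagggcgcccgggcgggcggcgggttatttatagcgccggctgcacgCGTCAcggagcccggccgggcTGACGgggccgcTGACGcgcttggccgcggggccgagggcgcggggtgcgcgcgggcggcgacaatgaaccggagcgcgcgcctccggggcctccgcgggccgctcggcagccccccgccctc
Nr4a3: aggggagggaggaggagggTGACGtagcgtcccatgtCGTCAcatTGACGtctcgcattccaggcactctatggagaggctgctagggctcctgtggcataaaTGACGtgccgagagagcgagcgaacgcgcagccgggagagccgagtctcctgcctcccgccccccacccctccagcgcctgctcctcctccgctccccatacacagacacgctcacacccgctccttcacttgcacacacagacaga
All 3 stretches held 4 cores. At 3 h Nr4a1 was 3.27-fold lower, Nr4a2 1.40-fold higher and Nr4a3 close to equal. At least 1 core was present in 17.7% of all 32817 upstream windows of this length. It was not limited to the NR4A genes: windows of Egr2 and Srf held it too, which made 7 of the 11 windows and 5 of the 7 genes with an upstream sequence. The stretches are rich in G and C (74.4% in Nr4a1, 80.0% in Nr4a2 and 63.6% in Nr4a3, with a median of 52.4% over all windows), which bears on how often a motif with CG is met. In Nr4a1 the matches begin 233, 213, 69 and 40 bases before the start, in Nr4a2 200, 144, 123 and 111 bases before it, and in Nr4a3 231, 213, 205 and 147 bases before it. How the number and the positions of the cores relate to the differences was not tested. The complete CRE, TGACGTCA, was in none of them and in 1.55% of all windows. A match is a description of letters, and no binding was measured.

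NR4A1 and NR4A2, but not NR4A3, pair with retinoid X receptors. Of these, Rxra had 6.73 at 3 h, against 6.45 at 0 h, and Rxrb 9.31 at 3 h, against 9.08 at 0 h, while Rxrg was below the floor. Among 7 textbook targets of CREB, 5 reached the floor. None of these was 2-fold or even 1.5-fold different, and their median was -0.04. Pde4d, a phosphodiesterase gene, differed by 0.53, Crem, which encodes a CREB-related factor, by -0.33, the phosphatase gene Dusp1 by -0.26 and Pde4b by -0.04. None of the 5 approached the -1.71 of Nr4a1.

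The IER genes were also split. Ier2, an early gene whose product acts in the nucleus, had 9.46 at 3 h, against 11.02 at 0 h (probe set 1416442_at). This was a difference of -1.56 or 2.95-fold, and 14 of 9284 genes were lower by more. Ier3 (IEX-1), a regulator of cell survival that is induced by NF-kB, had 8.04 at 3 h, against 8.16 at 0 h (probe set 1419647_a_at). The difference of -0.12 lay in the middle of all genes, with 33.8% as low or lower. Ier5 had 9.46 at 3 h, against 9.24 at 0 h (probe set 1417612_at), a difference of 0.22, and 25.8% of genes were as high or higher. The related gene Ier5l was below the floor, at 5.16 at 3 h and 5.57 at 0 h.

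In human cells IER5 binds the B55 form of the phosphatase PP2A and the heat shock factor HSF1. The 6 PP2A subunit genes at or above the floor, of 8 measured, differed by between -0.15 and 0.20, with the highest difference in the scaffold gene Ppp2r1a. Heat shock genes were mostly lower. This held for 10 of the 12 that reached the floor, against 48.5% of all genes. Of the 12, 1 was at least 2-fold lower and 5 at least 1.5-fold lower, against 0.872% and 4.80% of all genes. The median of the 12 was -0.26. The co-chaperone gene Dnajb1 had 10.61 at 3 h, against 11.88 at 0 h, and Hsph1 (-0.91) and Chordc1 (-0.86) were also lower. The small heat shock protein gene Hspb1, at 0.92, was the exception among the largest differences.

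Srf, which encodes the DNA-binding partner of the ELK and MRTF cofactors, had 8.66 at 3 h, against 9.19 at 0 h. Its difference was -0.53 or 1.44-fold, and 6.17% of the 9284 genes were as low or lower. Its probe set (1418255_s_at) is of a kind that can match more than 1 gene. SRF binds the CArG box, an A and T rich core between CC and GG, and is known to act on its own gene. The upstream stretch of Srf (GRCm38.p6, chr17:46556163-46556412, minus strand) is shown with its 2 CArG boxes in capitals, which begin 82 and 62 bases before the annotated start. For Egr2, a known SRF target, 30 bases from each of 2 CArG boxes onwards are shown, at chr10:67537494-67537523 and chr10:67537797-67537826 (plus strand), each 72 bases before one of the 5 annotated starts in the table.
Srf: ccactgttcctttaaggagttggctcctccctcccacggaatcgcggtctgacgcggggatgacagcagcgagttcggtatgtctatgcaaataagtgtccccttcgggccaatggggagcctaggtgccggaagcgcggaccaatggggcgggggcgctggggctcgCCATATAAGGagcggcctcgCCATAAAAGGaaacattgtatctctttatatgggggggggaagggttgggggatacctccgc
Egr2, first box: CCTTTTTTGGaaagtctcggagaaccggaa
Egr2, next box: CCATATATGGgcagcgacgtcacgggtatt
A CArG box was found in 5 of the 11 windows of these genes, all in Srf and Egr2, and in 1.47% of all windows. Of the 5 Egr2 windows, 3 overlap and hold the same box. Egr1, Egr3 and Ier2 had no entry in the sequence table.

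Other motifs were searched on both strands in the same 250 bases. The GC box GGGCGG was found in 8 of the 11 windows, at least 1 for each of the 7 genes, and in 32.7% of all windows. The ETS core CCGGAA was found in Egr2, Nr4a1 and Srf, and in 12.0% of all windows. The letters TATAAA of the TATA box were matched in Nr4a2 and Srf, and in 12.4% of all windows. In both genes the match reads TTTATA, so it lies on the opposite strand. It begins 164 bases before the start in Nr4a2 and 38 bases before it in Srf. The kappaB site, known by name, was found in Ier3 and Egr2 and in 7.25% of windows, and the 2 matches in Egr2 overlap each other. The heat shock core TTCNNGAA was found in Egr2 (7.16% of windows), where it overlaps ETS cores. The EGR site GCGTGGGCG (0.536% of windows) and the NR4A site AAAGGTCA (1.34%) were in none of the 7.

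The genes that carry signals to SRF were level or higher. Of 6 measured cofactor genes, 4 reached the floor and all 4 were higher, with a median of 0.36, while 48.5% of all genes were lower. Mrtfb had 8.68 at 3 h, against 7.86 at 0 h, a difference of 0.82, while Elk3 differed by 0.43, Mrtfa by 0.29 and Elk4 by 0.11. Elk1 was below the floor, at 5.41 at 3 h and 5.51 at 0 h. Of 11 kinase and CREB pathway genes at or above the floor none was 1.5-fold different. They ranged from -0.14 in the MEK gene Map2k2 to 0.51 in Rps6ka5, which encodes the CREB kinase MSK1.

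Cytoskeletal targets of SRF and its MRTF cofactors were mostly higher. Of 15 at or above the floor, 14 were higher and 1, Actb, was lower (-0.42), against 48.5% of all genes lower. The median was 0.49, with 7 genes past 1.5-fold and 2 past 2-fold upwards, against 6.94% and 2.00% of all genes. The smooth muscle actin gene Acta2 had 10.65 at 3 h, against 9.57 at 0 h, and Fhl2, a LIM-domain gene, had 9.32 at 3 h, against 8.32 at 0 h. Fhl2 lay at the threshold and was short of 2-fold, at 0.99, once the median of all genes was subtracted. Tagln differed by 0.88 and the tropomyosin gene Tpm4 by 0.73.

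**Figure D2:**
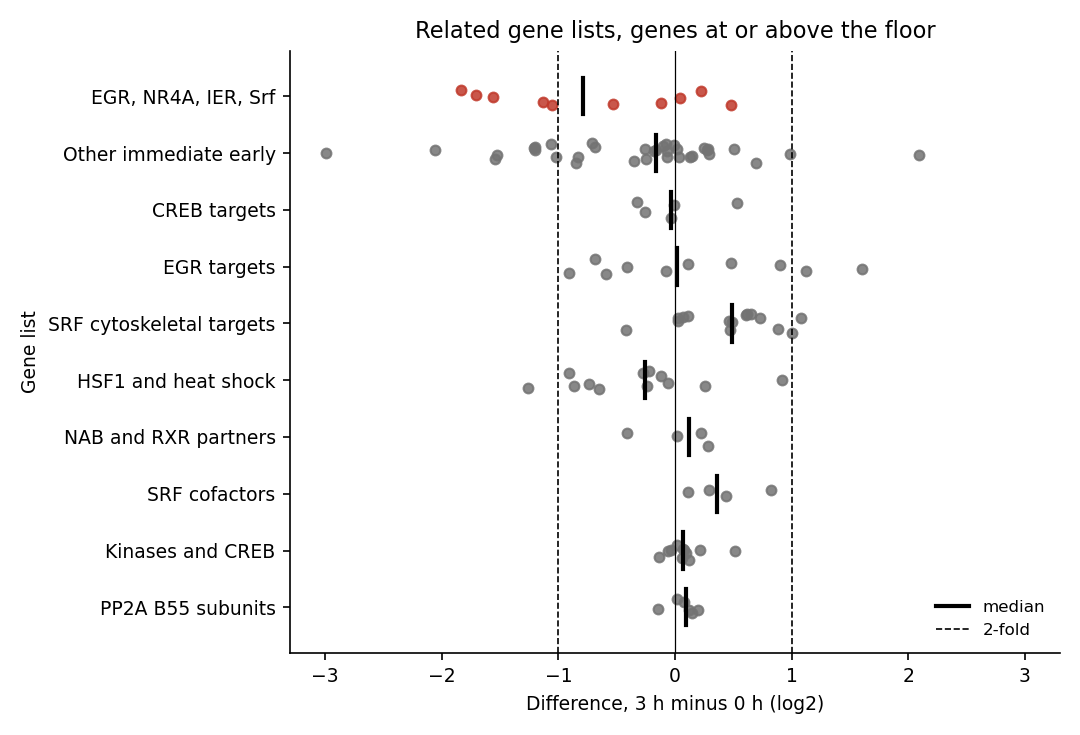
Differences (3 h minus 0 h, log2) of each gene at or above the floor, 1 row per gene list, with the median of each list as a black bar and dashed lines at 2-fold. The 10 genes have their median at -0.79 and the SRF cytoskeletal targets at 0.49, while the kinases and PP2A subunits cluster around 0.

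Other immediate early genes spread widely, and the FOS and JUN genes, which encode the subunits of AP-1, were among the lowest. Past 2-fold, 9 of the 35 that reached the floor were lower and 1 was higher, against 0.872% and 2.00% of all genes. The median of the 35 was -0.16. Of 7 FOS and JUN genes, picked out after their values were seen, 5 were at least 2-fold lower and 0 at least 2-fold higher. Fos had 10.87 at 3 h, against 12.40 at 0 h, a difference of -1.53. Jun differed by -1.21, Junb by -1.07 and Jund by -1.02, so all 3 JUN genes were past the threshold, as the EGR genes were. Jund, like Egr1, was close to it and did not reach it under quantile normalization (-0.96) and with the intensity trend removed (-0.98). Fosl1 was higher (0.98), from a 0 h value below the floor, and Fosl2 differed by -0.07. The remaining one, Fosb, had 4.59 at 3 h, below the floor, against 7.58 at 0 h. Nfkbiz, an NF-kB regulator gene, differed by -2.06 and Maff, which encodes a small MAF protein, by -1.55. In contrast Ptgs2, the inducible prostaglandin synthase gene, had 6.66 at 3 h, against 4.57, below the floor, at 0 h. Among the 20 genes that were lowest at 3 h relative to 0 h, 3 were EGR, NR4A or IER genes (Egr3, Nr4a1 and Ier2) and 4 belonged to this wider list.

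Ordered by difference, the genes ran Egr3, Nr4a1, Ier2, Egr2, Egr1, Srf, Ier3, Nr4a3, Ier5 and Nr4a2. The gaps between Ier2 and Egr2 (0.43), Egr1 and Srf (0.52) and Srf and Ier3 (0.41) were wider than the robust SD of 0.31, and those between the other neighbours were narrower. No order of levels is given between genes, since probe sets differ in brightness. The gap below Egr1 sets the 5 genes past 2-fold apart from the rest, as the plot of all genes shows.

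**Figure D3:**
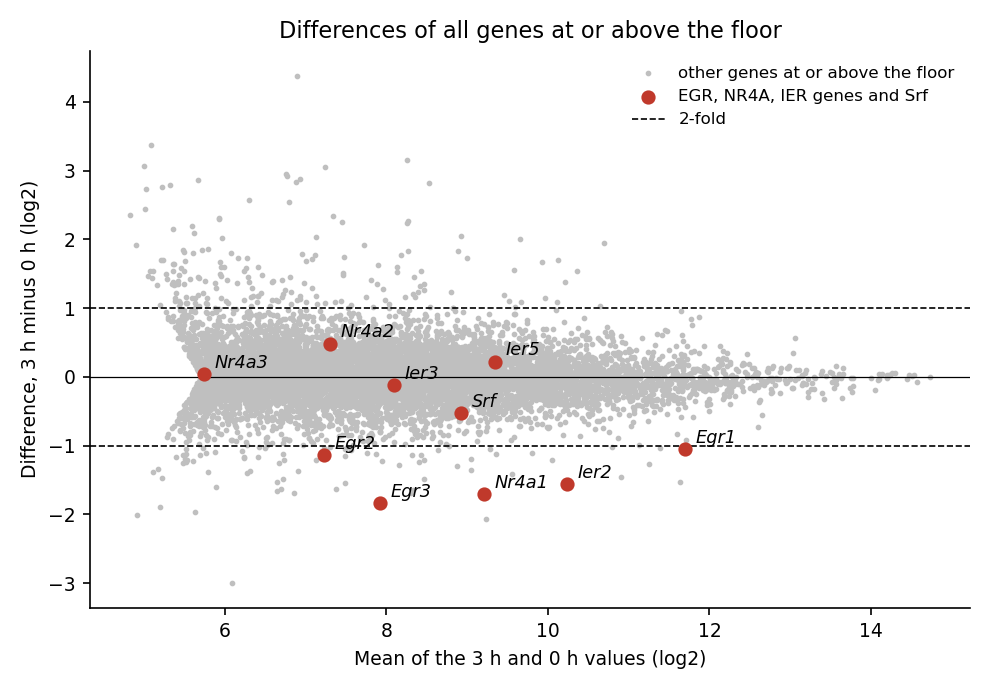
Difference (3 h minus 0 h, log2) against the mean of both values for the 9284 genes at or above the floor, with the 10 genes in red and dashed lines at 2-fold. Egr1, Ier2, Nr4a1, Egr3 and Egr2 lie below the lower line at means between 7 and 12, where most other genes lie close to 0.

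The 10 genes varied in length, and 9 of them were shorter than the median of the genes counted. Their annotated span in GRCm38.p6 had a median of 6508.5 bases and ran from 1199 bases in Ier3 to 41370 bases in Nr4a3, against a median of 22507 bases over the 9267 genes at or above the floor with a span. The genes at least 2-fold lower ran from 1522 bases in Ier2 to 20894 bases in Nr4a1, and the others from Ier3 to Nr4a3. How span relates to the differences was not tested. The 6 other genes whose difference was nearest to the median of the 10, with both values at or above the floor, were Klb, Mto1, Selenbp1, Apob, Mtap and Slc26a6, with differences between -0.80 and -0.78. With 2 arrays many genes share any one difference.

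The labelled cell type was checked against its markers. All 14 measured erythroid markers reached the floor on at least 1 array, with a median difference of 0.18. Their summed linear signal was 26607 at 3 h, against 23083 at 0 h. Of the 14, 12 were higher, 5 of them at least 1.5-fold and 2 at least 2-fold. The other 2 were lower: Epor (-0.19) and Car2 (-0.04), the brightest of the list. Nfe2 (1.11) and Gata1 (0.83) were higher, as was the late gene Slc4a1, at 8.30 at 3 h, against 5.47 at 0 h. Slc4a1 passed the floor through the 3 h value alone, which fixed its direction. Markers of other cells differed as well, although the depletion antibodies included GR1 and CD11b against myeloid cells. Of 14 measured granulocyte markers, 9 reached the floor at 3 h and 6 at 0 h, and all 9 were higher. Camp, Ngp and Lcn2 passed the floor through the 3 h value alone, which fixed their direction. Below the floor on both arrays, Csf3r (-0.53) and Mmp9 (-0.18) were lower, and Ltf (0.26), Mmp8 (0.63) and Fcnb (0.76) higher. The median was 1.06 over the 9 and 0.74 over all 14. The summed linear signal over the 14 was 12550 at 3 h, against 6544 at 0 h. S100a9 differed by 1.94, S100a8 by 1.70, Camp by 1.67 and Mpo, the granule enzyme myeloperoxidase, by 0.45. Such sums give most weight to the brightest probe sets. Of 14 macrophage and monocyte markers 5 reached the floor, 4 of them higher and Vcam1 (-0.98) lower. The summed signal over all 14 was 2716 at 3 h, against 1748 at 0 h. Of the 5 that reached the floor, Lyz2 (1.83) and Csf1r (1.00) had the largest differences upwards. The other 9 were below the floor on both arrays. Fcgr1 (1.24) and Mpeg1 (0.88) were nonetheless higher among them, and C1qa, C1qb, C1qc, Mrc1, Cd68, Adgre1 and Marco each differed by less than 0.27. All 18 measured hepatocyte markers reached the floor on both arrays, 16 of them lower, against 48.5% of all genes. Their summed signal was 117251 at 3 h, against 124700 at 0 h. These transcripts were bright at both times: Afp, at 14.53 at 3 h and 14.60 at 0 h, was near the highest probe set value of each array (14.7). Afp differed by -0.07 and Apob by -0.79, while the keratin genes Krt8 (0.95) and Krt18 (0.88) were higher. Of 6 megakaryocyte markers 4 reached the floor at 3 h and 1, Itga2b (-0.09), at 0 h. Gp1bb (2.19) and Gp9 (0.47) were among those that passed it through the 3 h value alone, which fixed their direction. The summed signal over all 6 was 381 at 3 h, against 287 at 0 h. Of 8 endothelial markers 2 reached the floor at 3 h and 1 at 0 h. Their summed signal over all 8 was 359 at 3 h, against 328 at 0 h. Of 10 lymphoid markers 2 reached the floor at 3 h and 1 at 0 h, as Ighm (0.74) passed it through the 3 h value alone. Their summed signal over all 10 was 521 at 3 h, against 369 at 0 h. The part of these cells in the differences of the EGR, NR4A and IER genes was not tested.

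**Figure D4:**
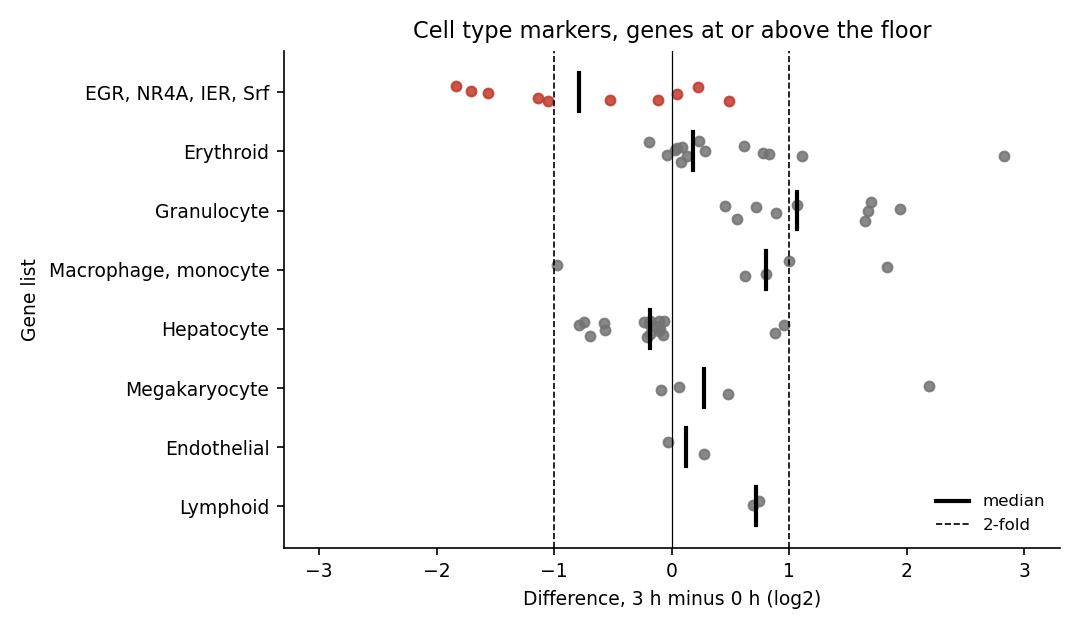
Differences (3 h minus 0 h, log2) of cell type markers at or above the floor, 1 row per list, with the 10 genes in red on top, medians as black bars and dashed lines at 2-fold. The 9 granulocyte markers shown lie to the right, with a median of 1.06 (0.74 over all 14 measured). Most hepatocyte markers lie slightly left of 0, with a median of -0.18.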

How the data were processed

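The deposited table holds log2 expression values of 20666 probe sets on 2 arrays. Each array received biotin-labelled cRNA, prepared by a one-cycle assay (1.5 µg of total RNA, per the labels' protocols). Per the submitters' processing notes, the authors used RMA and the affy package. The sources used here give no versions and do not say which arrays were normalized together. RMA equalizes the distribution of probe values between arrays, so a shift of all transcripts could not be seen, and it shrinks differences between dim signals. Precision is limited by the number of arrays.

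The titles give the time of each sample. A platform annotation table named the probe sets (17918 with 1 gene, 79 with several, 2669 with none). Entrez IDs tied 17767 of the first kind to RefSeq genes (GRCm38.p6), which changed 0 symbols. For the 43 of 17874 genes with several probe sets, their mean was used. The floor was the median of all gene values, and 8590 genes below it on both arrays were set aside. With 1 array per time no test was made. Genes count as lower or higher past 2-fold, and gene lists are described by counts and medians beside those of all genes. Linear signals are antilogs of the log2 values. The 10 genes and all lists were chosen with earlier results of these data known, so no list is independent support.

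The genes named were the 10, the EGR co-repressors and SRF cofactors, up to 4 of each related list with the largest absolute difference, the 6 nearest to the median of the 10, and the leading and brightest cell type markers. Egr4, Ier5l, Rxrg, Actb, Epor and the FOS and JUN genes other than Fosb, the macrophage markers below the floor, and gene names within motif results were added after values were seen. So were Ngp, Lcn2 and the granulocyte markers below the floor on both arrays. Motifs were searched in 250 bases before 11 annotated starts of 7 genes. Alternatives were quantile normalization of both columns, removal of an intensity trend (loess, span 0.3), subtraction of the median difference, the brightest probe set, probe sets without suffixes for possible several matches, no floor, a floor on both values and a 1.5-fold threshold. The steps were checked on simulated data. Python 3.11.15, numpy 2.4.6, pandas 2.3.3, statsmodels 0.14.6 and matplotlib 3.10.9 were used.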

Additional observations from a re-analysis of the deposited data

How the results depend on the processing

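Each of the 10 genes has 1 probe set and reached the floor on both arrays. The alternatives for probe sets and floor therefore could not move their differences, and 37 of 67 values equal the reported ones for that reason. The other 30, from quantile normalization, trend removal and centring, moved by at most 0.06. No replicate error exists to set this against. Nr4a3 alone changed sign, at -0.0030 under quantile normalization. Egr1 was then at -0.996, which left 4 of the 10 genes at least 2-fold lower, against 5. Leaving out probe sets with suffixes removed Egr2, Ier3 and Srf. Medians of related lists moved by at most 0.10, and that of the EGR targets alone changed sign, at -0.08 with no floor or with both values at the floor.

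Counts changed more. At 1.5-fold, 446 of the 9284 genes were lower (4.80%) and 644 higher (6.94%). Of 101 genes of the related lists at or above the floor, 21 were lower and 15 higher at this threshold. At 2-fold, 10 of the 101 were lower (9.90%) and 5 higher (4.95%), against 0.872% and 2.00% of all genes. With both values required to reach the floor, 91 genes were at least 2-fold higher, against 186, since this removes genes dim at 0 h. Among the related lists 3 were then at least 2-fold higher, against 5, and also 3 without suffixed probe sets. No paired analysis was possible because each time has 1 array, and for the same reason no replicate could be left out.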
